A study of Homo sapiens with 16 samples.

Results

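Early elongation was followed in the first kilobases of genes beyond the promoter-proximal region, at distances from 1 kb up to 5 kb past the transcription start site (TSS). These are 4000 of the 122001 positions in each of 16 DRB/GRO-seq profiles. The positions were set by distance alone, with earlier results of these data known. Each value is the normalized read depth at that distance averaged over genes of at least 30 kb, 8359 of them after the extremes were trimmed, in units of reads covering a base after each library was scaled to 20000000 reads.

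The cells were HEK293T-Rex, derived from human embryonic kidney and expressing the tetracycline repressor. Endogenous RECQL5 is depleted by a stable shRNA in all groups, and an shRNA-resistant RECQL5 is expressed from a doxycycline-inducible promoter. Wild-type (WT) cells received doxycycline at 0.2 ng/ml, whereas knockdown (KD) cells had been without it for 4 days. All cells were first treated with DRB, at a dose that the study's methods give as 100 μM for 3.5 hr and the sample labels as 100 mM. The 0 min samples were taken under the block, and the others 10, 25, and 40 min after its removal. The labels call these times of doxycycline treatment, while the methods give them as times after release, which is the reading used here. Clones 15 and 18, each grown from a single colony, were sampled as WT and KD at every time, which gives n = 2 clones for each genotype and time. No single gene can be read from averaged profiles, so neither RECQL5 nor a marker of the cell line was checked.

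RNA polymerase II (RNAPII) commonly pauses soon after initiation, and its release into productive elongation requires the kinase P-TEFb, which phosphorylates Spt5 and the C-terminal domain of RNAPII. DRB inhibits this kinase, so that elongating polymerases run off the gene while new ones remain near the promoter. The stretch just beyond the pause is where released polymerases first appear and where they are still gaining speed. In a run-on, engaged polymerases extend their transcripts with bromouridine, and read depth then reflects how many active polymerases lie at a position. RECQL5 is the RECQ-family helicase that binds RNAPII directly.

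The libraries held between 19452343 and 36399377 reads, and the window held the equivalent of 240174 to 2041174 reads of 250 bp per profile, a counting error of 0.0700% to 0.204% of its mean depth. These intervals cover counting error only, because copies of 1 molecule are not told apart. KD of clone 15 stood apart at 0 and 10 min. Its depth over the first 1 kb was 3.49 at 0 min, against 17.7 to 31.3 in the other 3 libraries, and 4.48 at 10 min, against 20.3 to 29.0. Its depth in the 2 kb before the TSS was likewise 1.69 at 0 min, against 7.81 to 11.4. The part of this low promoter signal in the comparisons was not tested, and each step between times that includes these libraries is also given without KD of clone 15. The 2 clones of a group differed by more than counting error in all 8 groups (chi-square over 120 bins of 1 kb divided by its degrees of freedom, 17.6 to 5819). Nothing states that a clone was sampled from more than 1 culture, so p-values measure the spread between these libraries.

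Most of the window is intronic. The profiles were made on hg19, which is GRCh37, and on that build GENCODE release 44 holds 8865 protein-coding genes with a longest transcript of at least 30 kb. An exon base was present in 2.06% of genes at the average position, with 3.27% from 1 to 2 kb and 1.39% from 4 to 5 kb, against 28.7% in the first 1 kb. The first exon still ran at 1000 bp in 3.11% of genes. At least 1 exon base lay in the window of 27.5% of genes (95% Wilson interval 26.6% to 28.5%), and the start of another protein-coding gene in 1.16%. The share of G and C bases was 45.1% from 1 to 2 kb and 42.4% from 4 to 5 kb, close to the 42.5% found from 5 to 10 kb. Base composition and exon share thus leveled off within the window. The gene set is a newer annotation than the authors', so these shares describe the same kind of gene and not their exact list.

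**Figure D1:**
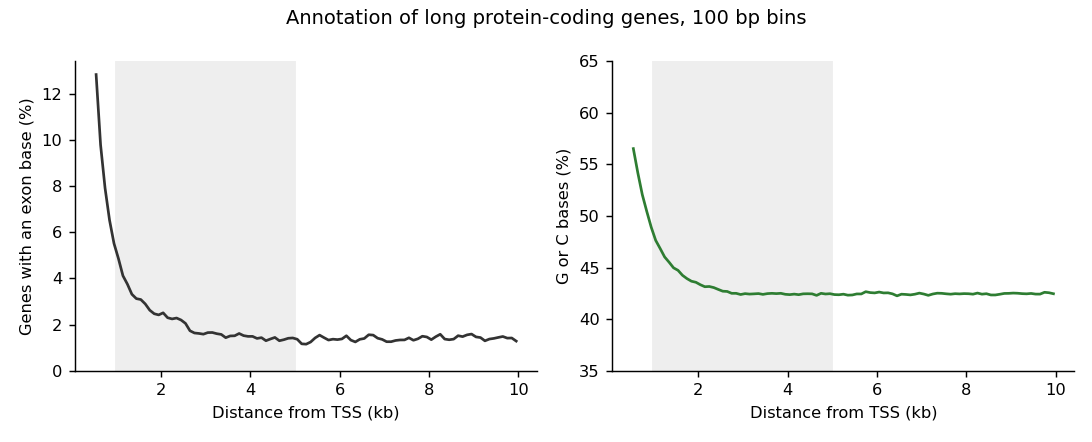
Share of 8865 long protein-coding genes with an exon base (left, %) and share of G or C bases (right, %) in 100 bp bins, against distance from the TSS in kb, with the 1 to 5 kb window shaded. Exon share is 3.27% from 1 to 2 kb and 1.39% from 4 to 5 kb, and the G and C share is 45.1% and 42.4%.

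Under the DRB block, the window held the tail of the promoter-proximal signal in its first section and little beyond it. From 1 to 2 kb the depth at 0 min was 5.28 in WT of clone 15, 5.58 in WT of clone 18, 1.73 in KD of clone 15, and 5.89 in KD of clone 18. Thus 3 libraries were close together and KD of clone 15 was low. The 4 libraries lay between 1.41 and 1.69 in the next section, between 1.29 and 1.39 in the third, and between 1.21 and 1.33 in the last. The genotypes overlapped in the first 3 of these sections, whereas from 4 to 5 kb both KD libraries, at 1.33 and 1.31, lay above both WT libraries, at 1.21 and 1.28. The same order held in 88.7% of the bins of the whole profile, and it depended on the scaling, since KD was 4.91% above WT in clone 15 but 1.28% below it in clone 18 after division by the depth over 110 to 120 kb.

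The decline under the block was steep and short. In the first 100 bp of the window the depth was 13.2, 14.4, and 14.9 in WT of clone 15, WT of clone 18, and KD of clone 18, and in the last 100 bp it was 1.19, 1.26, and 1.29. The section from 1 to 2 kb held 55.9% to 57.3% of the summed depth of the window in these libraries. In KD of clone 15 it held 29.8%, with 2.28 in the first and 1.32 in the last 100 bp.

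**Figure D2:**
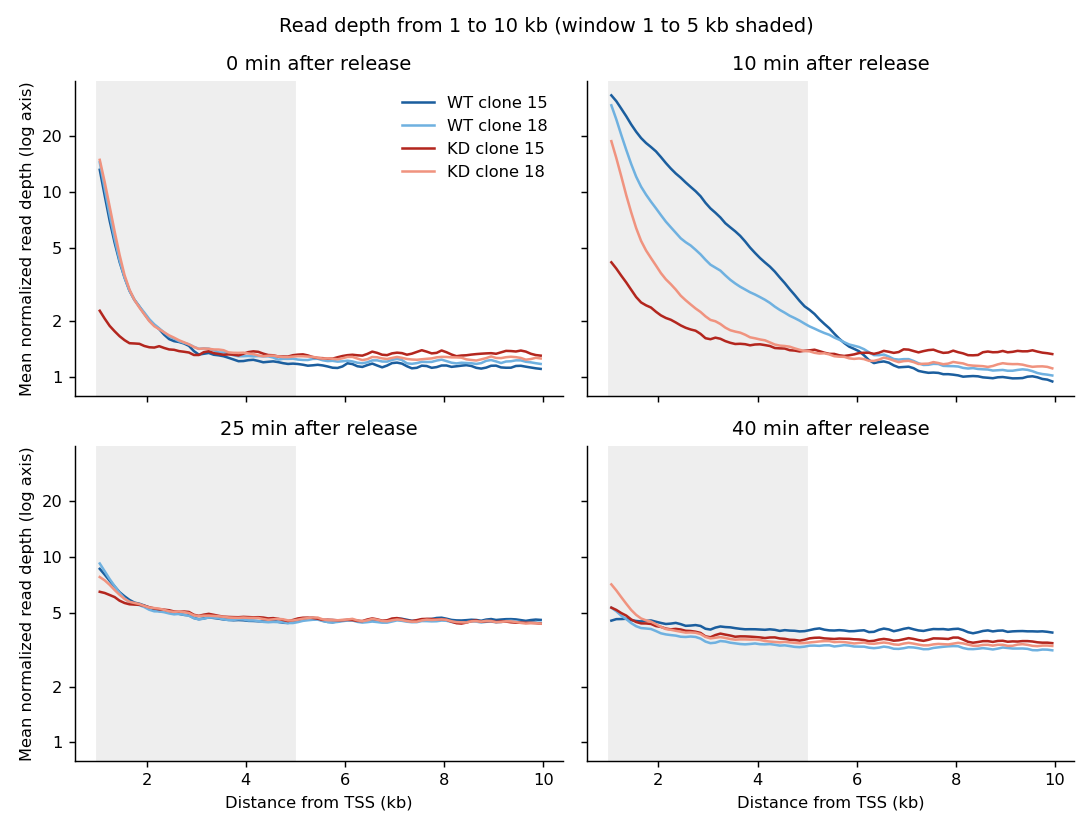
Mean normalized read depth (log axis) in 100 bp bins from 1 to 10 kb downstream of the TSS, 1 panel for each time and 1 line for each library, with the 1 to 5 kb window shaded. The 4 lines are spread at 10 min, from a window mean of 1.97 to 11.2, and nearly coincide at 25 min, from 5.11 to 5.21.

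At 10 min after release, the depth was above that under the block throughout the window, by far more in WT than in KD of either clone. The window averaged 11.2 in WT of clone 15, 6.69 in WT of clone 18, 1.97 in KD of clone 15, and 3.73 in KD of clone 18. The genotypes did not overlap, and the libraries spanned a wider range than at any other time. All 4000 positions were above their own 0 min profile in each of the 4 series of clone and genotype. This count was not made over the whole profile.

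The fold increase over 0 min was greatest within the window, not at its near edge, in 3 of the 4 series. As a difference of depths, the increase was greatest from 1 to 2 kb in all 4 series. In WT of clone 15, the 10 min depth was 4.43 times that at 0 min from 1 to 2 kb, 7.10 times from 2 to 3 kb, 4.90 times from 3 to 4 kb, and 2.78 times from 4 to 5 kb. WT of clone 18 had 2.77, 3.35, 2.46, and 1.80 times. KD of clone 18 had 1.50, 1.64, 1.30, and 1.14 times, so that it too was highest from 2 to 3 kb. In KD of clone 15 the fold was highest in the first section, with 1.74, 1.35, 1.16, and 1.08 times. From 5 to 10 kb the fold was between 0.957 and 1.06 in all 4 series.

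**Figure D3:**
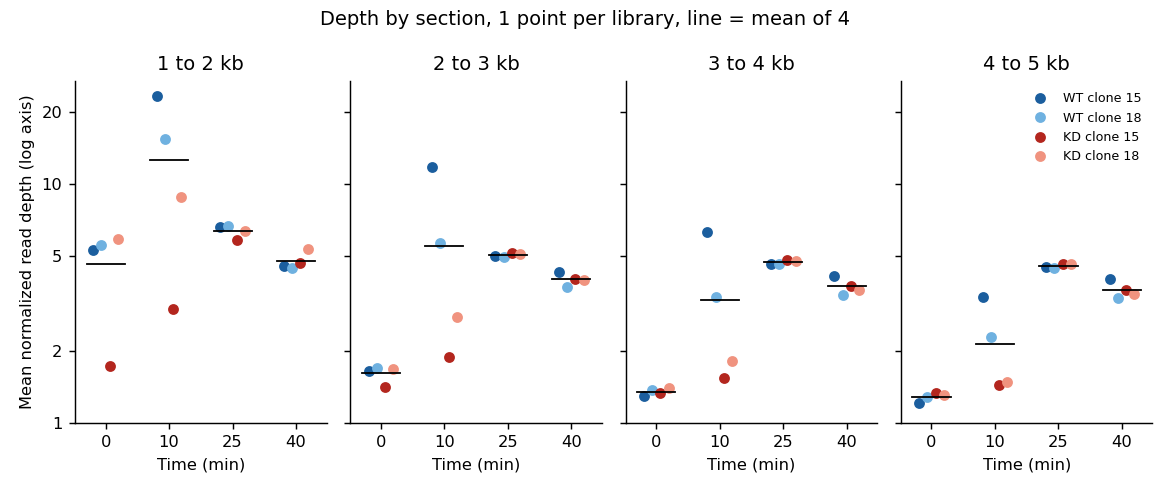
Mean normalized read depth (log axis) in each 1 kb section of the window against minutes after release, with 1 point for each library and a line at the mean of the 4. From 2 kb on, the 10 min points spread most and the 25 min points least, for example from 1.90 to 11.8 and from 4.95 to 5.13 in the 2 to 3 kb section.

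The amount gained differed more between series than did its shape. The gain, that is the 10 min depth less the 0 min depth of the same series, averaged 8.85 over the window in WT of clone 15, 4.21 in WT of clone 18, 0.520 in KD of clone 15, and 1.16 in KD of clone 18. Both WT series thus gained more than both KD series. In WT of clone 15 the first 1 kb lost 3.92 over the same interval, whereas it gained 3.08, 0.988, and 2.55 in the others. Each section held a similar share of the gain of the one before it, with 36.7% to 55.9% for the second, 38.4% to 49.9% for the third, and 42.7% to 51.3% for the last. Between 51.1% and 63.8% of the gain lay from 1 to 2 kb.

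The reach of the gain, the position at which its 500 bp running mean had first dropped to 50% of the mean over 1 to 1.5 kb, was 2473 bp in WT of clone 15, 1889 bp in WT of clone 18, 1915 bp in KD of clone 15, and 1955 bp in KD of clone 18. WT of clone 15 reached furthest, and the other 3 lay within 66 bp of each other. KD less WT was −558 bp in clone 15 and 66 bp in clone 18, with a mean of −246 bp (exact permutation test, two-sided, p = 1). At 25% of that mean the reach was 3476 and 2828 bp in WT of clones 15 and 18 and 2706 and 2629 bp in KD, so that KD was shorter in both clones without overlap (mean difference −484.5 bp, exact permutation test, two-sided, p = 0.333, as low as 2 against 2 can go). Whether the relative reach differed thus depended on the percentage chosen. In the last section, the gain was 10.6% and 8.10% of that over 1 to 1.5 kb in WT of clones 15 and 18, and 6.45% and 4.94% in KD, without overlap between the genotypes.

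**Figure D4:**
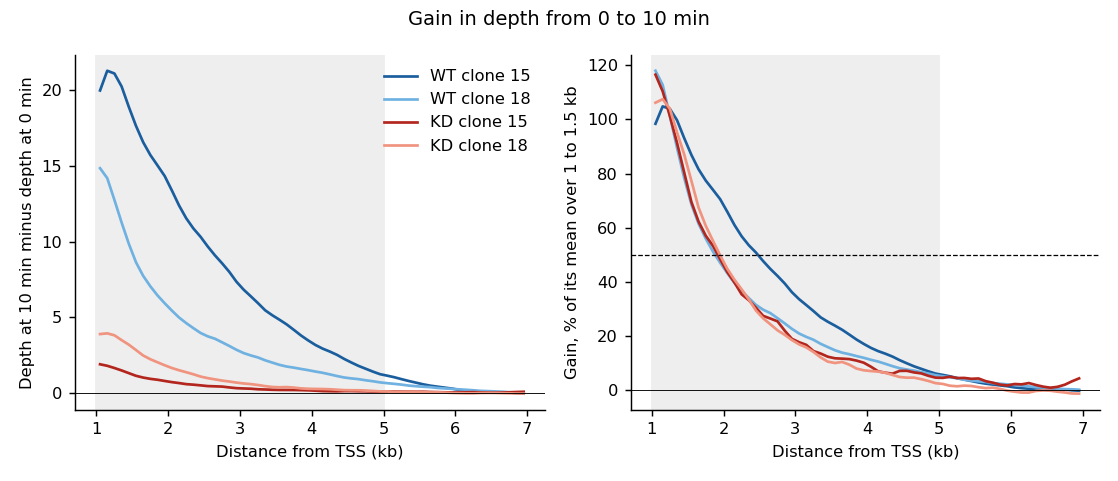
Gain in mean normalized read depth from 0 to 10 min in 100 bp bins (left) and the same gain as a percentage of its mean over 1 to 1.5 kb (right, with a dashed line at 50%), against distance from the TSS in kb, 1 line for each series. On the relative scale 3 lines run together and cross 50% between 1889 and 1955 bp, while WT of clone 15 crosses at 2473 bp.

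Taken over all 4 series, the log2 mean depth of the window was 1.11 ± 0.39 at 0 min and 2.28 ± 1.08 at 10 min (SD, n = 4), a difference of 1.17 that was positive in 4 of 4 series. It missed the threshold of 0.05 (p = 0.114 by two-sided exact permutation, adjusted p = 0.248 over the 13 comparisons of neighboring times). Without KD of clone 15 the difference was 1.41, with 3 libraries a group, for which no p below 0.1 is possible. With the median over positions in place of the mean it was 1.23 (exact permutation test, p = 0.029). In 31 of the 40 bins of 100 bp in the window, the 4 libraries at 10 min all lay above the 4 at 0 min, against 3.2% of all 1220 bins of the profile. These 31 bins lay from 1900 bp on, and they included every bin beyond 2 kb. Bins of 1 profile share reads and genes and are not replicates.

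At 25 min, the steep decline had given way to a low shoulder next to a nearly even depth. The mean depth over the window was 5.18 in both WT libraries, 5.11 in KD of clone 15, and 5.21 in KD of clone 18. The 4 libraries varied by 0.799% of their mean (SD, n = 4), against 68.5% at 10 min. From 1 to 2 kb the depth was 6.62 and 6.66 in WT of clones 15 and 18 and 5.87 and 6.35 in KD. From 4 to 5 kb it was 4.48 and 4.46 in WT and 4.65 and 4.62 in KD. Each section held 74.4% to 87.5%, 92.2% to 93.6%, and 96.5% to 97.1% of the depth of the one before it. The shoulder was thus mostly complete within the first section.

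Between 10 and 25 min the window differed in opposite directions in the genotypes. In WT its mean depth was lower at 25 min, from 11.2 to 5.18 in clone 15 and from 6.69 to 5.18 in clone 18. In KD it was higher, from 1.97 to 5.11 in clone 15 and from 3.73 to 5.21 in clone 18. The log2 step in KD exceeded that in WT by 2.49 in clone 15 and 0.85 in clone 18 (mean 1.67, p = 0.333 by two-sided exact permutation, as low as 2 against 2 can go, adjusted p = 0.639 over 23 comparisons of genotypes). Over all 4 series the mean step was 0.09 (exact permutation test, p = 0.829, adjusted p = 0.96). Its sign is not settled, since it was −0.33 without KD of clone 15, −0.04 without KD of clone 18, and negative under both other scalings.

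The distance at which the 25 min depth first exceeded the 10 min depth, in 500 bp running means, differed accordingly, a measure chosen after the values were seen. It lay at 4017 bp in WT of clone 15, 2759 bp in WT of clone 18, and 1642 bp in KD of clone 18. KD of clone 15 was already above at 1000 bp. In the last section all 4 series were higher at 25 min, by 1.33 times in WT of clone 15, 1.94 in WT of clone 18, 3.24 in KD of clone 15, and 3.11 in KD of clone 18. All 10 bins from 4 to 5 kb were without overlap between 10 and 25 min, and these were the only such bins in the window, 10 of 40 against 66.6% over the whole profile.

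The ratio of the 1 to 2 kb section to the 4 to 5 kb section gives the decline in a form that no scaling of a library alters. At 0 min it was 4.36 in both WT libraries, 1.30 in KD of clone 15, and 4.51 in KD of clone 18. At 10 min it was 6.94, 6.72, 2.10, and 5.95 in the same order, higher than at 0 min in 4 of 4 series. At 25 min it was 1.48, 1.49, 1.26, and 1.38. On the log2 scale the ratio was lower at 25 than at 10 min by a mean difference of −1.81 in 4 of 4 series, without overlap (p = 0.029 by two-sided exact permutation, as low as 4 against 4 can go). This was not past 0.05 after adjustment (adjusted p = 0.093 over 13 comparisons), nor with the series as a replicate block (exact permutation of signs, p = 0.125, as low as 4 pairs can go). From 0 to 10 min the mean log2 difference was 0.60 (exact permutation test, p = 0.4, adjusted p = 0.578). Without KD of clone 15 the steps were 0.57 from 0 to 10 min and −2.17 from 10 to 25 min.

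At 40 min the whole window was lower than at 25 min in every series. The mean depth was 4.25 in WT of clone 15, 3.74 in WT of clone 18, 4.01 in KD of clone 15, and 4.10 in KD of clone 18. All 4000 positions were below their own 25 min profile in each of the 4 series, a count that was not made over the whole profile. The mean log2 difference was −0.36, with −0.29 to −0.47 in single series, and the libraries of the 2 times did not overlap (exact permutation test, two-sided, p = 0.029, adjusted p = 0.093). Paired by series it gave p = 0.125 (exact sign-flip permutation test with the replicate block). Under the 2 other scalings the difference was −0.31 and −0.60, each with p = 0.029 (exact permutation test). In 38 of the 40 bins all 4 libraries at 40 min lay below all 4 at 25 min, against 15.5% over the profile, and the exceptions were the 2 bins nearest the promoter. None had all 4 above, against 45.5% over the profile.

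The relative difference from 25 min was greatest next to the promoter in WT, but not in KD. As a difference of depths this contrast was not shared by both KD clones. KD of clone 15 differed by −1.20 from 1 to 2 kb and −1.03 from 4 to 5 kb, and KD of clone 18 by −1.01 and −1.14. From 1 to 2 kb, the 40 min depth was 0.688 and 0.672 times that at 25 min in WT of clones 15 and 18, and 0.796 and 0.841 times in KD. From 4 to 5 kb it was 0.897 and 0.746 times in WT and 0.778 and 0.753 times in KD. The ratio of 1 to 2 kb over 4 to 5 kb was therefore lower at 40 than at 25 min in both WT clones, with 1.13 and 1.35, and higher in both KD clones, with 1.29 and 1.54. Over all series it differed by −0.08 on the log2 scale, within the spread (exact permutation test, p = 0.543, adjusted p = 0.706). The steps of WT and KD in this ratio were of opposite sign, and the difference between them was not tested.

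The end of the window was close to the depth from 5 to 10 kb in all 4 libraries at 0, 25, and 40 min. At 10 min this held in KD of clone 15 alone. The depth from 4 to 5 kb divided by that from 5 to 10 kb was between 0.996 and 1.054 at 0 min, between 0.980 and 1.02 at 25 min, and between 1.002 and 1.03 at 40 min. At 10 min it was 2.76 in WT of clone 15, 1.81 in WT of clone 18, 1.051 in KD of clone 15, and 1.22 in KD of clone 18. The step down beyond 5 kb was thus larger in both WT libraries than in both KD libraries. From 10 to 25 min the log2 of this ratio differed by a mean of −0.66, lower in 4 of 4 series and without overlap (exact permutation test, two-sided, p = 0.029, adjusted p = 0.093, and p = 0.125 with the replicate block). The mean was −0.87 without KD of clone 15 and −0.39 without WT of clone 15, whose ratio was the highest at 10 min, and no p below 0.1 is possible then. From 0 to 10 min the mean was 0.63 (exact permutation test, p = 0.086, adjusted p = 0.223), with 4 of 4 series higher, and it was 0.81 without KD of clone 15 and 0.37 without WT of clone 15. With 5 to 30 kb as reference, the end of the window was less close in KD at 25 min. Its depth was 4.65 and 4.62 in KD of clones 15 and 18, against 3.89 and 3.87 from 5 to 30 kb. In WT it was 4.48 and 4.46, against 4.33 and 4.16.

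The position at which the profile came down to within 10% of its own mean depth over 5 to 10 kb, in a 200 bp running mean, placed this leveling within the window. At 0 min it was 3691 bp in WT of clone 15, 3665 bp in WT of clone 18, 1984 bp in KD of clone 15, and 3552 bp in KD of clone 18. At 10 min only KD of clone 15 came to this level before 5 kb, at 3777 bp, and the other 3 libraries did not. At 25 min the position was 2489 and 2506 bp in WT and 2873 and 2828 bp in KD. At 40 min it was 2031 and 2898 bp in WT and 2804 and 2932 bp in KD. From 25 to 40 min it differed by a mean of −7.75 bp, with 2 series higher and 2 lower (exact permutation test, p = 0.971, adjusted p = 0.971). The depth beyond 5 kb was itself several times higher at 25 and 40 min, from 3.24 to 4.57, than at 0 min, from 1.15 to 1.33, so a level profile at the late times lies at a higher depth than under the block.

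Set against the first 1 kb, the window was higher at each time up to 25 min in all 4 series. Its mean depth was 7.54%, 9.56%, 41.6%, and 14.5% of that over the first 1 kb at 0 min, in WT of clones 15 and 18 and KD of clones 15 and 18. At 10 min it was 41.0%, 23.1%, 44.04%, and 18.4%. At 25 min it was 59.998% and 64.7% in WT and 94.4% and 96.9% in KD. At 40 min it was 133%, 57.1%, 76.4%, and 73.5%, so that in WT of clone 15 the window exceeded the promoter-proximal region. On the log2 scale the 25 min share exceeded that at 10 min by a mean of 1.38, higher in 4 of 4 series and without overlap (exact permutation test, two-sided, p = 0.029, adjusted p = 0.093, and p = 0.125 with the replicate block). The value for clone 15 alone was 0.83 and for clone 18 alone 1.94. Without KD of clone 15 the mean of all remaining series was 1.48. From 0 to 10 min the mean was 1.03 (exact permutation test, p = 0.143, adjusted p = 0.265), with 1.35 without KD of clone 15 and 0.57 without WT of clone 15, and from 25 to 40 min it was 0.07 (exact permutation test, p = 0.886, adjusted p = 0.96).

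Whether loss of RECQL5 altered early elongation was asked by comparing KD with WT at each time. With 2 clones a group, no difference can go below p = 0.333 in an exact permutation test, and with the clone as a replicate block none below p = 0.5. At 0 min the window depth of KD was 38.5% below WT in clone 15 and 3.55% above it in clone 18, and the mean log2 difference of −0.33 was within the spread (exact permutation test, two-sided, p = 1). In 6 of the 40 bins, from 1700 to 2299 bp, both KD libraries lay below both WT libraries, against 1.97% over the profile. In 13 bins, all from 3700 bp on, both KD libraries lay above, against 88.7% over the profile.

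At 10 min the window depth was lower in KD than in WT in both clones, by 82.4% in clone 15 and 44.3% in clone 18. The mean log2 difference was −1.68 (exact permutation test, two-sided, p = 0.333, adjusted p = 0.639). In clone 18 alone, where no library stood apart, the log2 difference was −0.84, which cannot be tested by itself. The KD deficit in clone 18 was 42.7% from 1 to 2 kb, 51.1% from 2 to 3 kb, 46.0% in the third section, and 35.3% in the last. In clone 15 it was greatest at the near edge, with 87.1% from 1 to 2 kb and 57.4% from 4 to 5 kb. From 5 to 10 kb KD was 12.0% above WT in clone 15 and 4.41% below it in clone 18. All 40 bins of the window had both KD libraries below both WT libraries, against 6.64% over the profile, and none had both above, against 78.9%. In the first 1 kb KD was also below WT, by 83.6% and 30.2%, and the part of the lower promoter-proximal depth in the lower window depth was not tested.

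**Figure D5:**
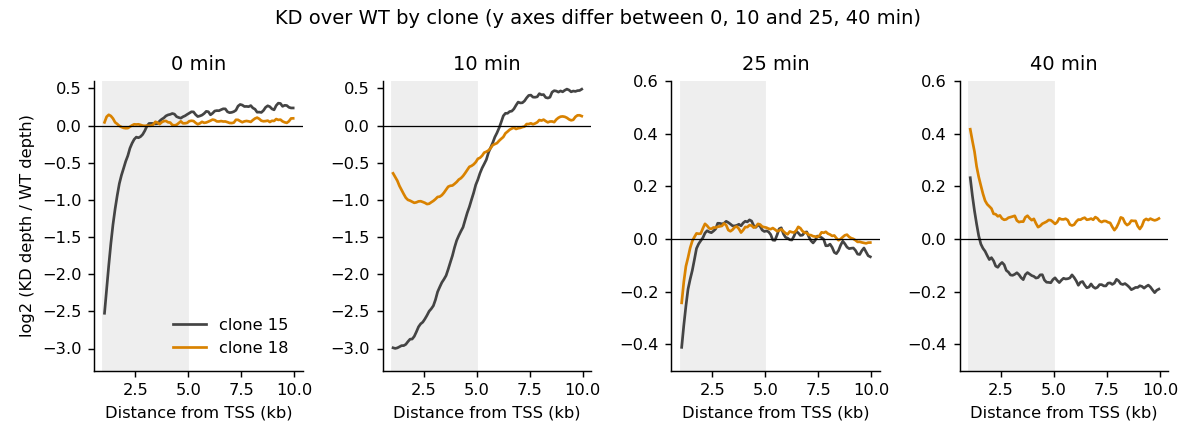
Log2 ratio of KD to WT depth in 100 bp bins from 1 to 10 kb downstream of the TSS, 1 panel for each time and 1 line for each clone, with the 1 to 5 kb window shaded and y axes that differ between the early and the late times. Both lines lie below 0 throughout the window at 10 min, and at 25 min both lie below 0 in the 6 bins nearest the promoter and above 0 from 2 to 5 kb.

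At 25 min the mean depths of KD and WT differed by little, with KD 1.31% below WT in clone 15 and 0.669% above it in clone 18, but the shape differed in the same way in both clones. From 1 to 2 kb KD was below WT, by 11.3% in clone 15 and 4.62% in clone 18. From 2 to 5 kb it was above WT, by 3.39% and 3.18%. In 500 bp running means KD first exceeded WT 1994 bp into the gene for clone 15 and 1646 bp for clone 18. Both KD libraries lay above both WT libraries in 30 of the 40 bins, those from 2 to 5 kb, against 16.6% over the profile. They lay below in 6 bins, from 1000 to 1599 bp, against 32.5%. When each profile was divided by its depth over 110 to 120 kb, the excess from 2 to 5 kb was 4.96% and 7.53%, and with its summed depth over 0 to 120 kb it was 7.01% and 9.11%. The deficit from 1 to 2 kb was less stable, with 10.0% and 0.599% after the first scaling, and after the second KD was 8.24% below WT in clone 15 and 0.863% above it in clone 18.

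At 25 min the decline across the window was smaller in KD, but judged against the depth from 5 to 10 kb it ended further into the gene. The log2 ratio of 1 to 2 kb over 4 to 5 kb was 0.34 and 0.46 in KD and 0.56 and 0.58 in WT, a mean difference of −0.17. The leveling position was further into the gene in KD by 384 bp in clone 15 and 322 bp in clone 18. The size of this difference rested on the tolerance, with a mean of 353 bp at 10%, 656 bp at 5%, and 12 bp at 20%. With 5 to 30 kb as reference the difference had no value. The lowest depth of the window in KD of clones 15 and 18, 4.48 and 4.51, stayed more than 10% above the depth from 5 to 30 kb, 3.89 and 3.87. The share of the window relative to the first 1 kb exceeded that in WT by 0.65 and 0.58 on the log2 scale, and the first 1 kb itself was 37.3% and 32.7% lower in KD. The genotypes did not overlap in that log2 ratio, in the leveling position at 10%, or in the share relative to the first 1 kb. Each was at the lowest possible p = 0.333 (two-sided exact permutation, adjusted p = 0.639). The depth of the first 1 kb itself was not tested.

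At 40 min the shape difference had the opposite sign. From 1 to 2 kb KD was above WT by 2.64% in clone 15 and 19.3% in clone 18. From 2 to 5 kb KD was 8.57% below WT in clone 15 and 5.41% above it in clone 18, so the clones no longer shared a direction beyond 2 kb. The log2 ratio of 1 to 2 kb over 4 to 5 kb was higher in KD than in WT by 0.19 in both clones, although the genotypes overlapped because the clones differed by as much (exact permutation test, two-sided, p = 0.667, adjusted p = 1, and p = 0.5 with the replicate block). In WT of clone 15 the depth was even across the near edge, with 4.53 in its first 100 bp, against 5.32, 5.32, and 7.10 in WT of clone 18 and KD of clones 15 and 18. Its first 1 kb held 3.19, against 5.25 to 6.55 in the others. Both KD libraries lay above both WT libraries in 5 of the 40 bins, all from 1 to 1.5 kb, against 2.95% over the profile.

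Small undulations of the profiles recurred between libraries of the same time. After removal of a 500 bp running mean, the residual depth from 1.25 to 4.75 kb had a Pearson r between libraries of 0.51 to 0.83 at 25 min and 0.65 to 0.85 at 40 min, over 6 pairs of libraries at each time. This is across positions of the same genes, with reads extended to 250 bp, and is a description. The range includes part of the shoulder from 1 to 2 kb, whose part in r was not tested. Where the decline was steep, r was 0.52 to 0.96 at 0 min and 0.55 to 0.93 at 10 min. Between libraries at 0 or 10 min and those at 25 or 40 min, r ranged more widely. It was 0.069 to 0.80 over 64 pairs, with a median of 0.58. The highest residual at 25 and 40 min was 1.40% to 2.54% of the local depth. It lay between 2794 and 2837 bp in 5 of the 8 libraries and between 3260 and 3307 bp in the other 3.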

How the data were processed

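DRB/GRO-seq was measured in 16 samples, grouped by genotype, clone, and time from their titles. The authors sequenced 36 bp single-end reads and aligned them to hg19 with BWA 0.5.9, with CASAVA 1.8.2 also listed in the submitters' processing notes. Reads in rRNA genes or blacklisted regions had been discarded, the rest lengthened to 250 bp, and each library brought to a common size of 20000000 reads. The deposited signal is coverage, averaged by the authors at each base pair with a trimmed mean (0.01) over genes of at least 30 kb. The annotation release and the strand counted are not given in the sources used here. Scaling makes totals equal, so reads elsewhere lower the depth of the window. Extension carries signal of the promoter-proximal peak up to 250 bp onward.

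Every value was a whole multiple of 1 step per profile. The number of genes left after trimming, 8359, is the greatest common divisor of the 16 denominators these steps give, and library sizes follow from it. Mean depths, ratios, and positions were computed per library, tested on simulated data, and compared by exact permutation tests, two-sided, with Benjamini-Hochberg adjustment over 13 comparisons of times and 23 of genotypes. Calls in the closing part use the unadjusted p at 0.05. Python 3.11.15, numpy 2.4.6, pandas 2.3.3, and matplotlib 3.10.9 were used.

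WT and KD of 1 clone come from the same cell line and were paired as a replicate block. Their deviations from the group means in 40 bins had r of 0.12, 0.19, 0.63, and 0.99 at 0, 10, 25, and 40 min. Alternatives were other scalings, medians, a window from 1.25 kb, depth differences, other references and tolerances, and leaving out clones or series. The window, lists, and measures were chosen with earlier results of these data known. No gene is named, by rule.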

Additional observations from a re-analysis of the deposited data

Results flagged for a closer look

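In 20 groups of 4 libraries tested for a library apart from the other 3, 5 were found. Chance would give about 1 in 20 independent groups. These groups are several measures of the same libraries and pool the genotypes, so that number is no measure of how unusual the 5 are. KD of clone 15 was apart at 0 min in the log2 ratio of 1 to 2 kb over 4 to 5 kb, at 0.38, and in the leveling position, at 1984 bp. It was also apart at 10 min in that log2 ratio, at 1.07. WT of clone 15 was apart at 40 min in the leveling position, at 2031 bp, and in the reach of the gain from 0 to 10 min, at 2473 bp.

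At single times and for the reach, the KD minus WT difference had opposite signs in the 2 clones for 8 results. These are given as clone 15 less clone 18. For the log2 window depth that difference between clones was −0.75 at 0 min, −0.029 at 25 min, and −0.21 at 40 min. For the log2 ratio of 1 to 2 kb over 4 to 5 kb at 0 min it was −1.79. For the window against the first 1 kb it was 0.43 at 10 min and −1.17 at 40 min on the log2 scale. For the last section against 5 to 10 kb at 40 min it was 0.025, and for the reach of the gain −624 bp. The log2 depth step from 25 to 40 min, KD less WT, also had opposite signs, at −0.064 in clone 15 and 0.12 in clone 18. With 1 pair a clone, these differences between clones were not tested.

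For 2 results, the time step had the same sign in both clones of a genotype and the opposite sign in the other genotype. For the log2 window depth from 10 to 25 min, the step in KD exceeded that in WT by 1.67 (exact permutation test, p = 0.333, the smallest possible). For the log2 ratio of 1 to 2 kb over 4 to 5 kb from 25 to 40 min it did so by 0.36, which was not tested.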

How the results depend on the processing

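Of 164 values under alternatives that kept all libraries, 136 kept their direction and their side of 0.05. Of these 136, 32 came from the replicate block, which leaves the value itself unaltered, so that their direction could not differ. With 2 clones a group, no comparison of genotypes can pass 0.05. The causes of the differences below were not tested.

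The log2 depth step from 10 to 25 min turned negative with each profile divided by its depth over 110 to 120 kb (−0.19), by its summed depth (−0.34), and as a difference of depths (−0.73). KD minus WT at 25 min turned positive with these scalings (0.036 and 0.060), medians (0.049), and a window from 1.25 kb (0.022). KD minus WT turned to −0.0032 at 40 min with the summed depth, and with medians to −0.028 at 40 min and 0.0082 at 0 min. The step from 25 to 40 min in KD less WT turned to −0.032 and −0.064 with the scalings, −0.077 with medians, and −0.021 from 1.25 kb. The window less the first 1 kb, KD minus WT at 10 min, turned to 9.72 as a difference of depths. For the last section, the step from 25 to 40 min turned to −0.13 with 5 to 30 kb as reference, and the leveling position from 25 to 40 min turned to 142.5 bp at a tolerance of 5% in place of 10%.

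As differences of depths, 3 steps from 10 to 25 min missed 0.05 in the exact permutation test, −8.70 for 1 to 2 kb less 4 to 5 kb (p = 0.114), 12.7 for the window less the first 1 kb (p = 0.086), and −0.86 for the last section less 5 to 10 kb (p = 0.086). The last missed it also with 5 to 30 kb as reference, at −0.59 (exact permutation test, p = 0.286). The step from 0 to 10 min passed with medians for depth, at 1.23, and as a difference for the last section, at 0.84 (exact permutation test, p = 0.029 for each). With the replicate block the 4 steps past 0.05 had unaltered values (−0.36, −1.81, 1.38, and −0.66) but p = 0.125 by exact permutation of signs, which is as low as 4 pairs can go, and no other call differed. Exon share was 1.75% for transcripts of at least 60 kb.

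Leaving out a clone or series leaves at most 3 against 3, which cannot pass. The 4 steps past 0.05 then lay between −0.41 and −0.32 for depth from 25 to 40 min, and from 10 to 25 min between −2.17 and −1.48 for the ratio of 1 to 2 over 4 to 5 kb, 0.83 and 1.94 for the window against the first 1 kb, and −0.87 and −0.39 for the last section. Steps whose sign turned lay between −0.33 and 0.50 for depth from 10 to 25 min, and from 25 to 40 min between −0.18 and 0.015 for that ratio, −0.30 and 0.42 against the first 1 kb, and −263.5 and 248 bp for the leveling position. KD minus WT in single clones lay between −0.70 and 0.050 for depth at 0 min, −0.019 and 0.0096 at 25 min, −0.083 and 0.13 at 40 min, −1.74 and 0.046 for the ratio at 0 min, −0.33 and 0.10 against the first 1 kb at 10 min, −0.80 and 0.36 at 40 min, −0.0043 and 0.021 for the last section at 40 min, −0.064 and 0.12 for the depth step from 25 to 40 min, and −558 and 66 bp for the reach.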
